A study of Mus musculus with 6 samples.

Results

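The genes described here are the proteasome subunits and their helpers, taken as every entry of the deposited table whose gene name begins with Psm, a letter from a to g and a digit. The rule matched 49 of 21307 entries. They comprised 8 genes of the 20S alpha ring, 4 non-catalytic, 3 constitutive catalytic and 3 inducible catalytic genes of the beta ring, and the thymus-specific Psmb11. The 19S cap was represented by 6 ATPase and 11 non-ATPase genes. The others were 7 assembly chaperones, 4 activators, the inhibitor Psmf1, and Psmc3ip, which shares the name but encodes a cofactor of homologous recombination. Of the 49, 47 passed the filter on low values, a mean of at least 1 FPKM (fragments per kilobase of transcript, scaled to the number of mapped fragments) with both conditions above 0. The exceptions were Psma8, the testis form of an alpha subunit, at 0.363 FPKM in 4-OHT and 0.134 FPKM in ethanol, and Psmb11, at 0.00313 FPKM in 4-OHT and 0.00339 FPKM in ethanol.

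The study sequenced RNA of cultured bone marrow B cells from mice aged 6 to 8 weeks on a mixed C57BL/6 and 129S1/SvlmJ background. All cells carried the same alleles: the Eµ-myc transgene, which drives MYC from an immunoglobulin enhancer, the floxed Prmt5F/F alleles and CreER, whose driver the labels do not name. One set of cells received 50 nM 4-hydroxytamoxifen (4-OHT) for 24 h, which activates CreER to delete Prmt5, a protein arginine methyltransferase. The controls received ethanol. All were then washed, kept 5 more days, and grown in interleukin 7 at 5 ng/µl. The 3 libraries of 4-OHT cells are titled PT and the 3 of ethanol cells WT, although the genotype given is the same. How many mice or cultures they stand for is not stated.

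The table holds 1 FPKM value per gene and condition, so no difference below has a replicate check, an error or a test. Differences are sizes. The ratio used is log2 of 4-OHT FPKM plus 1 over ethanol FPKM plus 1, which understates the change of low genes, and a fold below is on that scale. A gene was counted as called when 4-OHT FPKM plus 1 was at least 20% lower or at least 25% higher than ethanol FPKM plus 1, which are the same distance on the log2 scale, and again past 2-fold. The targeted gene, Prmt5, stood at 5.71 FPKM in 4-OHT and 41.6 FPKM in ethanol. All 12 listed B cell markers were detected in both conditions and lower in 4-OHT, 6 of them at least 2-fold. Cd22 and Rag1 were nearly level, each with a log2 ratio of -0.03. Without Vpreb1, Vpreb3 and Igll1, 9 markers remained, 3 of them at least 2-fold lower. Over all compared entries, 2.58% were at least 2-fold lower and 10.4% at least 2-fold higher. All 11 matched neutrophil markers and all 8 stromal markers were at least 2-fold higher in 4-OHT. Of 13 monocyte and macrophage markers, 12 were compared and higher, 8 of them at least 2-fold, and Lyz2 is listed at 0 in 4-OHT and at 3835 FPKM in ethanol. The summed B cell markers were at 1114.9 FPKM in 4-OHT and 2324 FPKM in ethanol and the neutrophil markers at 3650 FPKM in 4-OHT and 417 FPKM in ethanol. The stromal markers summed to 602 FPKM in 4-OHT and 37.5 FPKM in ethanol, and the monocyte and macrophage markers without Lyz2 to 6263 FPKM in 4-OHT and 3042 FPKM in ethanol. With Lyz2 that sum was 6263 FPKM in 4-OHT and 6877 FPKM in ethanol, so this gene decides its direction. Whether its 0 in 4-OHT is a measured level or a missing value was not tested. Markers of T cells summed to 19.3 FPKM in 4-OHT and 16.4 FPKM in ethanol, those of dendritic cells to 29.7 FPKM in 4-OHT and 15.2 FPKM in ethanol, and those of natural killer cells to 16.4 FPKM in 4-OHT and 3.95 FPKM in ethanol. Single genes carried these low sums: Lck, at 11.1 FPKM in 4-OHT and 13.6 FPKM in ethanol, was lower while the 5 other T cell markers were higher. Itgax, at 26.8 FPKM in 4-OHT and 11.4 FPKM in ethanol, made up most of the dendritic sum, in which Flt3 was lower, at 1.53 FPKM in 4-OHT and 3.20 FPKM in ethanol. Nkg7, at 13.6 FPKM in 4-OHT and 1.62 FPKM in ethanol, made up most of the difference in the natural killer sum. In such bulk samples, fewer cells of a type and less RNA per cell cannot be told apart, and the part of these cell types in the proteasome values was not tested.

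The proteasome is the cell's main machine for breaking down proteins marked with ubiquitin. Its 20S core is a barrel of stacked rings. The outer alpha rings control entry, and the inner beta rings carry the proteolytic sites. The 19S cap recognises ubiquitin, unfolds the substrate with a ring of ATPases and feeds it into the core. In blood cells and under interferon, the catalytic subunits Psmb6, Psmb7 and Psmb5 can be replaced by Psmb9, Psmb10 and Psmb8, which gives the immunoproteasome and changes the peptides available to MHC class I molecules.

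The 250 bases before the start sites are shown for the 3 inducible genes, which the results set against their constitutive counterparts, and for 3 of the 4 chaperones of 20S assembly, the class with the lowest median ratio (RefSeq, GRCm38.p6, 5′ to 3′ on the strand of the gene). Psmg2, the chaperone with the lowest ratio, is named only. Capitals mark matches, on either strand, to 7 short motifs: the E-box CACGTG, a binding site of MYC; the CCAAT box; the gamma-interferon element TTCNNNGAA; the interferon response core, a pair of GAAA repeats 2 bases apart; the antioxidant response cores TGACNNNGC and TGAGNNNGC; and the ETS core CCGGAA. The windows are chr17:34197945-34198194, plus strand, for Psmb8, chr17:34187331-34187580, minus strand, for Psmb9, chr8:105938393-105938642, minus strand, for Psmb10, chr16:95990961-95991210, minus strand, for Psmg1, chr5:139826895-139827144, minus strand, for Psmg3, and chr13:34162714-34162963, plus strand, for Psmg4.
Psmb8: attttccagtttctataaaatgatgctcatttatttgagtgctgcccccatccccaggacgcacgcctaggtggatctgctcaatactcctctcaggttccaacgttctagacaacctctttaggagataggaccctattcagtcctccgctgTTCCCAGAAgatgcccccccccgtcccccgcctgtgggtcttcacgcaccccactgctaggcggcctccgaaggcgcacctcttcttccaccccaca
Psmb9: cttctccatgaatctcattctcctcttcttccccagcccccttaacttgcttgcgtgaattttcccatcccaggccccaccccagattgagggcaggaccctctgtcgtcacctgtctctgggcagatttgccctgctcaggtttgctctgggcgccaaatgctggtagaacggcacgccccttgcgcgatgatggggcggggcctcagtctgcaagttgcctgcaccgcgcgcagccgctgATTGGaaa
Psmb10: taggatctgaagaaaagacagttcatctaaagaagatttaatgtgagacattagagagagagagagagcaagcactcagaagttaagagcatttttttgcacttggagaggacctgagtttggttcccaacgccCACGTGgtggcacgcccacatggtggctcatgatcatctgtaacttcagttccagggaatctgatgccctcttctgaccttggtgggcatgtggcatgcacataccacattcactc
Psmg1: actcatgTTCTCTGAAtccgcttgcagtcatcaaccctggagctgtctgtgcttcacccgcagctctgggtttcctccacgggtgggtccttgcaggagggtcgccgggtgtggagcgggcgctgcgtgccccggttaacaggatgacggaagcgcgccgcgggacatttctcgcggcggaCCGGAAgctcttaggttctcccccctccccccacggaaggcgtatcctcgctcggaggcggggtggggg
Psmg3: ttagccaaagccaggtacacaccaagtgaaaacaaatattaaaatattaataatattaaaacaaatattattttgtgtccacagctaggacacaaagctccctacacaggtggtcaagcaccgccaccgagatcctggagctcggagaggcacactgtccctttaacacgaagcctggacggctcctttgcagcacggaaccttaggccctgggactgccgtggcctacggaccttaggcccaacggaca
Psmg4: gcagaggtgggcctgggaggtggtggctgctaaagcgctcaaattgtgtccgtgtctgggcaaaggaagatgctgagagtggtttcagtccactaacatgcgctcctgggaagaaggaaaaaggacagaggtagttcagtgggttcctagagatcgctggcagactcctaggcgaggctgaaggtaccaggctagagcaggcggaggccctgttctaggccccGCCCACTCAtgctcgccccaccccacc

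Psmb8 and Psmg1 were the members with a gamma-interferon element, 2 of 41 members with a promoter entry (4.88%), against 7.11% of all 27025 promoters of this length. Psmb10 had an E-box, as did Psma4, Psmd9 and Psme3, so 4 of 41 (9.76%) had one, against 5.93% of all promoters. The Psmb9 window held a CCAAT box, a motif found in 15 of 41 members (36.6%) and 34.2% of all promoters. The Psmg4 window held an antioxidant response core with G, found in 9 of 41 members (21.95%) and 14.3% of all promoters, and the core with C was found in 5 of 41 (12.2%) and 10.1%. No listed motif was found in the Psmg3 window. The interferon response core occurred in 3 of 41 members (7.32%), none of them an inducible gene, and in 3.06% of all promoters. The ETS core, present in the Psmg1 window, had the widest gap, at 17 of 41 members (41.5%), 12.3% of all promoters and 23.3% of the 7886 promoters of compared genes. Over those 7886, the share was 8.71% for the E-box, 36.4% for the CCAAT box and 6.12% for the gamma-interferon element. It was 12.1% for the antioxidant core with C, 16.1% for that with G and 2.75% for the interferon response core. Beside this set, the members were close for the E-box, the CCAAT box and the core with C. These matches are descriptions of the letters and were not tested for binding, and none of the 7 motifs overlapped another in the 6 windows. The 41 members include Psmc3ip, which is not a proteasome gene and had the ETS core, the CCAAT box and the antioxidant core with G. They also include Psmb11, which had a CCAAT box but is not among the compared genes.

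Proteasome genes were slightly lower in 4-OHT as a group, with a narrow spread. Of the 47 compared, 35 were lower (74.5%), against 55.1% of all 10856 compared entries, and 12 were higher (25.5%), against 44.9%. The median log2 ratio was -0.22, against -0.07 over all compared entries and -0.14 over the 3563 with a mean of at least 20 FPKM, of which 59.8% were lower and 40.2% higher. The quartiles of the members ran from -0.31 to -0.01, whereas those of all entries ran from -0.39 to 0.40. At least 20% lower were 11 members (23.4%), against 29.9% of all entries and 35.3% of those with a mean of at least 20 FPKM. None was at least 25% higher, against 27.7% of all entries and 23.8% of the abundant ones. None of the 47 was 2-fold different, against 2.58% of all entries at least 2-fold lower and 10.4% at least 2-fold higher, and 2.95% and 8.84% of the abundant ones. The order of the members by level was nearly kept, with a Spearman correlation of 0.97 between 4-OHT and ethanol over 47 genes, which share the libraries and are not replicates.

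**Figure D1:**
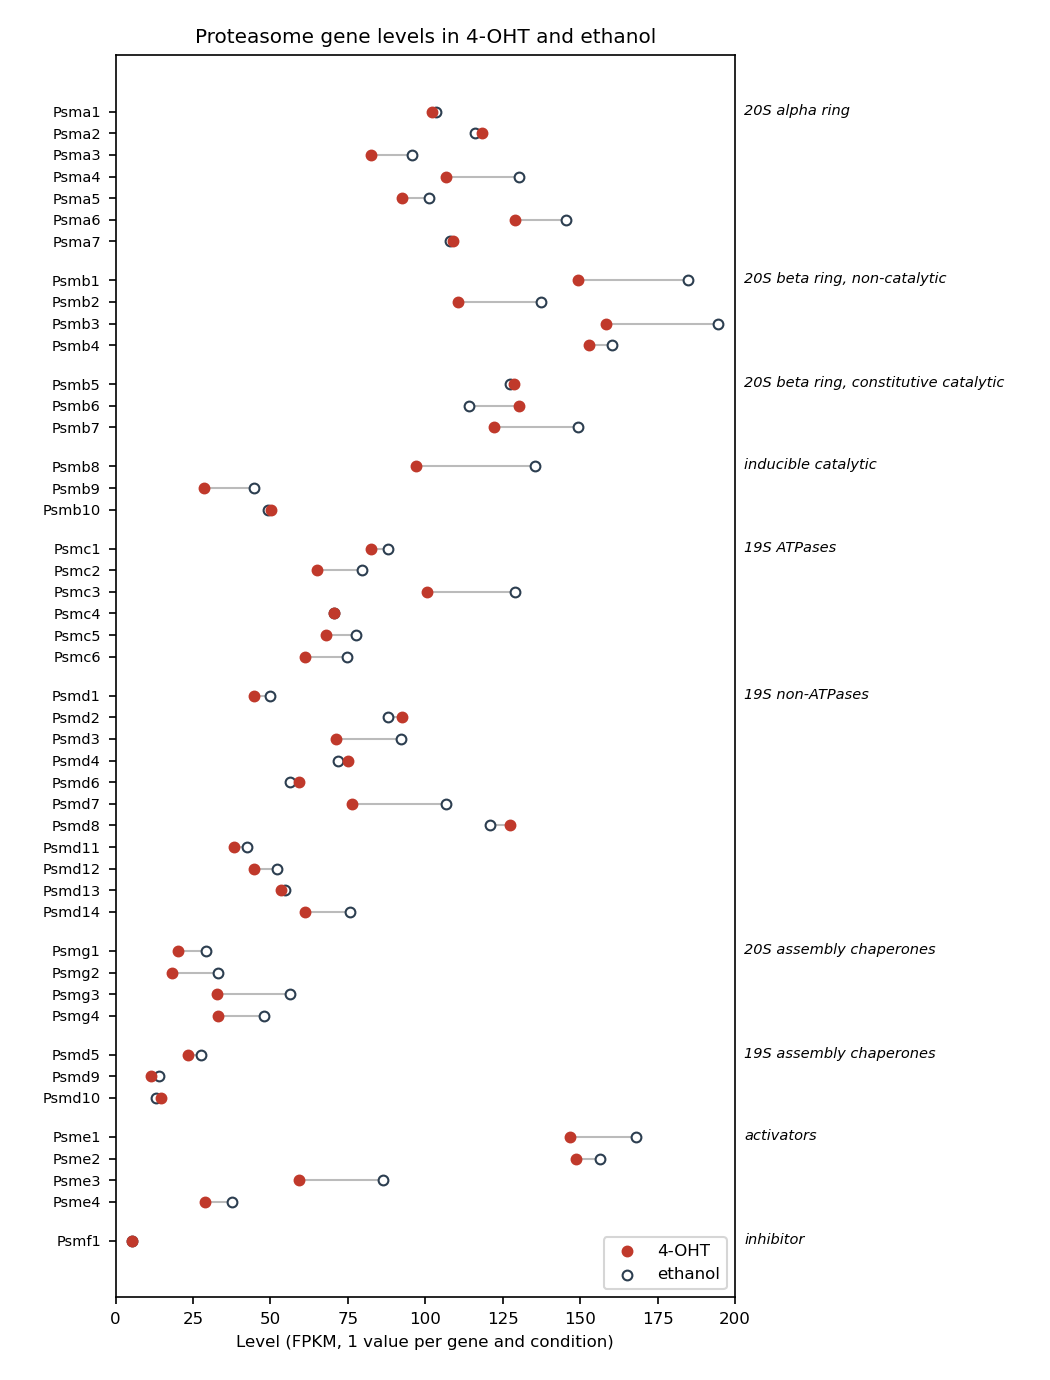
Level in FPKM (x axis, linear) of each compared proteasome gene (y axis, by class) in 4-OHT (filled) and ethanol (open), 1 value per gene and condition. The 14 constitutive core genes lie between 82.4 and 194.5 FPKM, the 20S assembly chaperones between 18.2 and 56.2 FPKM, and all 4 of these chaperones are to the left in 4-OHT.

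The 7 alpha ring genes of the core, which build the gated outer rings, kept close to each other. They ranged from 82.4 to 129 FPKM in 4-OHT and from 95.8 to 145.5 FPKM in ethanol, with a coefficient of variation over genes of 14.7% in 4-OHT and 15.6% in ethanol. The median log2 ratio was -0.13, with 5 lower, 2 higher and none called. Of all compared entries, 55.1% were lower, 44.9% higher, 29.9% at least 20% lower and 27.7% at least 25% higher. The class median was close to the -0.14 over entries with a mean of at least 20 FPKM. Psma4 had the lowest ratio, at 107 FPKM in 4-OHT and 130 FPKM in ethanol (-0.29). Psma2 had the highest, at 118 FPKM in 4-OHT and 116 FPKM in ethanol (0.03). Psma6 had the highest mean, at 129 FPKM in 4-OHT and 145.5 FPKM in ethanol, and Psma3 the lowest, at 82.4 FPKM in 4-OHT and 95.8 FPKM in ethanol. The levels of the ring in the conditions overlapped widely.

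The 4 non-catalytic beta genes, structural members of the inner rings, included the 3 most abundant core genes and were all lower in 4-OHT, with a median log2 ratio of -0.30. Of all compared entries, 55.1% were lower. Psmb3 stood at 158 FPKM in 4-OHT and 194.5 FPKM in ethanol (-0.30). Psmb1 stood at 149 FPKM in 4-OHT and 185 FPKM in ethanol (-0.31). Psmb2, the least abundant and lowest in ratio, stood at 110 FPKM in 4-OHT and 137 FPKM in ethanol (-0.31). Psmb4 was nearly level, at 153 FPKM in 4-OHT and 160 FPKM in ethanol (-0.07). Of the 4, 3 therefore lay just short of the call at 20% lower.

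The catalytic subunits did not move together. Psmb5, the constitutive subunit of chymotrypsin-like activity (mm9 chromosome 14, 55232957 to 55236832), was level, at 128.7 FPKM in 4-OHT and 127.5 FPKM in ethanol (log2 ratio 0.01). Psmb6, of caspase-like activity (chromosome 11, 70338859 to 70341360), was at 130.4 FPKM in 4-OHT and 114 FPKM in ethanol, the highest ratio of all 47 members (0.19). Psmb7, of trypsin-like activity (chromosome 2, 38443566 to 38499426), was at 122 FPKM in 4-OHT and 149 FPKM in ethanol (-0.29). The 3 genes were closer in level in 4-OHT, where they varied by 3.35%, than in ethanol, where they varied by 13.7% (coefficient of variation over genes).

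Of the inducible subunits, Psmb8 and Psmb9 were lower in 4-OHT and Psmb10 was not. Psmb8, the counterpart of Psmb5 (chromosome 17, 34335140 to 34338399), stood at 96.96 FPKM in 4-OHT and 135.5 FPKM in ethanol, 1.39-fold lower (-0.48). Psmb9, the counterpart of Psmb6 (chromosome 17, 34319044 to 34324275), stood at 28.6 FPKM in 4-OHT and 44.9 FPKM in ethanol, 1.55-fold lower (-0.63), the third lowest ratio of the members. Psmb10, the counterpart of Psmb7 (chromosome 8, 108459628 to 108462292), stood at 50.3 FPKM in 4-OHT and 49.1 FPKM in ethanol (0.03). Psmb8 was the most abundant inducible gene in both conditions. The 3 summed to 176 FPKM in 4-OHT and 229 FPKM in ethanol, and their quotient over the 3 constitutive genes was 0.461 in 4-OHT and 0.587 in ethanol.

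Set against its own counterpart, the inducible subunit took a smaller share of the pair in 4-OHT at 2 of the 3 catalytic places. FPKM is scaled to transcript length, and the paired genes are set side by side on that scale. Other differences between genes that can affect FPKM were not checked. Psmb9 made up 17.97% of its pair with Psmb6 in 4-OHT and 28.2% in ethanol. Psmb8 made up 43.0% of its pair with Psmb5 in 4-OHT and 51.5% in ethanol, so Psmb8 exceeded Psmb5 in ethanol and not in 4-OHT. Psmb10 went the other way, with 29.1% of its pair with Psmb7 in 4-OHT and 24.7% in ethanol. The log2 ratio of the inducible gene lay below that of its partner by 0.82 for Psmb9 and by 0.49 for Psmb8, and above it by 0.32 for Psmb10. The summed level of Psmb9 and Psmb6 was the same, at 159 FPKM in each condition. That of Psmb8 and Psmb5 was 226 FPKM in 4-OHT and 263 FPKM in ethanol, and that of Psmb10 and Psmb7 was 173 FPKM in 4-OHT and 198.5 FPKM in ethanol. These shares are of RNA and do not measure the subunits built into particles.

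**Figure D2:**
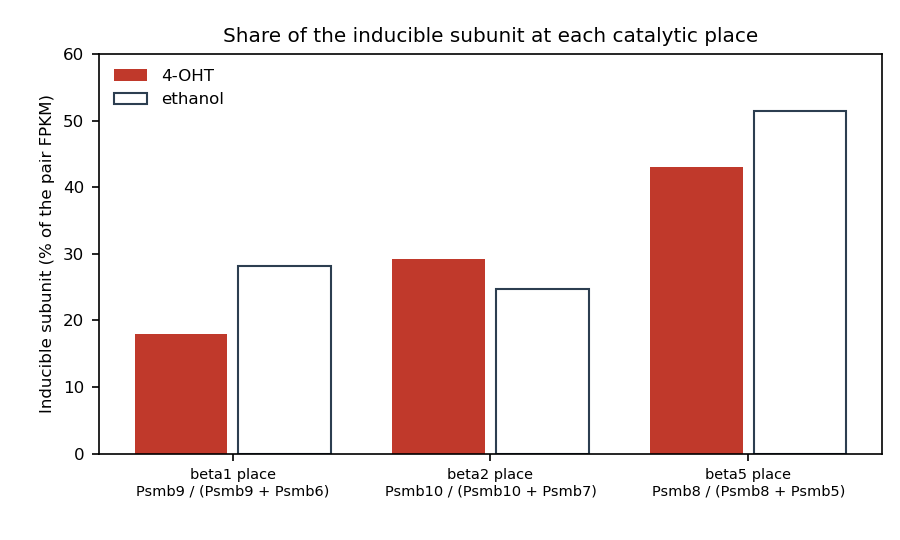
Share of the inducible subunit in the summed FPKM of each catalytic pair (y axis, percent, from 0), with 4-OHT (filled) left of ethanol (open). The bars have no error because each condition has 1 value per gene. The share is 17.97% in 4-OHT against 28.2% in ethanol for Psmb9, 29.1% against 24.7% for Psmb10, and 43.0% against 51.5% for Psmb8.

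Psmb8 and Psmb9 lie 10.9 kb apart on chromosome 17 in the mm9 loci of the table, with Tap1, a subunit gene of the peptide transporter of class I presentation, between them. The gap between Psmb9 and Tap1 is 225 bases, and the Psmb9 window shown above reaches across it. Tap1 was also lower, at 15.0 FPKM in 4-OHT and 20.8 FPKM in ethanol (-0.44). Psmb10 is on another chromosome. Tap2, the other transporter subunit, close to Psmb8 on chromosome 17, was higher, at 29.4 FPKM in 4-OHT and 24.8 FPKM in ethanol (0.23). The other close pairs of members were Psme1 and Psme2, with 2.19 kb between their listed loci, and Psmb5 and Psmb11, 7.31 kb apart, both on chromosome 14. Fam158a is listed with the same locus as Psme1, so the gap between the genes Psme1 and Psme2 themselves may be wider.

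Other genes of class I presentation were mostly higher in 4-OHT. Of 11 listed genes, 8 were higher, 5 of them at least 25%, and 3 lower, 1 of them (Tap1) at least 20%, with a median log2 ratio of 0.28. Over all compared entries, 44.9% were higher, 27.7% at least 25% higher and 29.9% at least 20% lower. The light chain gene B2m stood at 1274 FPKM in 4-OHT and 1052 FPKM in ethanol (0.28). The heavy chain gene H2-D1, in an entry merged with another name, stood at 956 FPKM in 4-OHT and 678.5 FPKM in ethanol (0.49). Calr, a chaperone gene of class I assembly, stood at 403 FPKM in 4-OHT and 257 FPKM in ethanol (0.65). Erap1, the gene of a peptidase that trims peptides in the endoplasmic reticulum, was lower, at 26.0 FPKM in 4-OHT and 31.4 FPKM in ethanol (-0.26). The neutrophil and the monocyte and macrophage markers, summed above, were higher in the same comparison, and their part in these values was not tested.

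Interferon signalling genes were likewise mostly higher, with 12 of 15 higher, 9 of them at least 25%, 2 at least 20% lower and a median log2 ratio of 0.45. The shares over all compared entries were 44.9% higher, 27.7% at least 25% higher and 29.9% at least 20% lower. The most abundant were the receptor gene Ifngr1, at 78.1 FPKM in 4-OHT and 54.9 FPKM in ethanol (0.50), Irf8, a transcription factor gene of myeloid and B cells, at 49.2 FPKM in 4-OHT and 48.8 FPKM in ethanol (0.01), and the receptor gene Ifnar2, at 59.1 FPKM in 4-OHT and 32.4 FPKM in ethanol (0.85). Irf1, a transcription factor known to bind the Psmb9 promoter, stood at 41.5 FPKM in 4-OHT and 38.5 FPKM in ethanol (0.10). Nlrc5, a coactivator of class I genes, was lower, at 6.99 FPKM in 4-OHT and 10.5 FPKM in ethanol (-0.53). Socs1, the feedback inhibitor, was the 1 listed gene past 2-fold, at 12.9 FPKM in 4-OHT and 31.4 FPKM in ethanol (-1.22). Psmb8, Psmb9, Tap1, Erap1, Canx, Nlrc5 and Socs1 thus lay below the median of all entries. Psmb10 and most of both lists lay above it. Irf1 and Nlrc5 were picked out after their values were seen, as was Erap1.

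The 19S cap genes of the name rule followed the core. These 17 genes summed to 0.705 of the 20S core genes in 4-OHT and 0.712 in ethanol. Their lid genes summed to 0.806 of the base genes in 4-OHT and 0.825 in ethanol. Cap genes outside the name rule are left out, among them Shfm1 (log2 ratio 0.09), Adrm1 (0.07) and Uchl5 (-0.56). Shfm1, at 412 FPKM in 4-OHT and 386 FPKM in ethanol, was above each of the 17. The quotients therefore describe the named genes and not the whole cap. The mean level over genes was 70.2 ± 22.1 FPKM in 4-OHT and 78.2 ± 24.4 FPKM in ethanol for the cap (SD over its 17 genes), and 121 ± 22.4 FPKM in 4-OHT and 133 ± 30.7 FPKM in ethanol for the core (SD over its 14 constitutive genes). The median log2 ratio was -0.15 in both, with 12 of 17 cap genes and 10 of 14 core genes lower, against 55.1% of all compared entries. All these genes have a mean of at least 20 FPKM. Over all such entries the median was -0.14 and 59.8% were lower, so both medians were close to that of other abundant genes.

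Of the 6 ATPase genes of the cap, which unfold substrates, 5 were lower, 1 of them at least 20%, and the median log2 ratio was -0.24. Of all compared entries, 55.1% were lower and 29.9% at least 20% lower. Psmc3 had the highest level and the lowest ratio, at 100.4 FPKM in 4-OHT and 129 FPKM in ethanol (-0.36). Psmc4 was level and had the highest ratio, at 70.5 FPKM in 4-OHT and 70.4 FPKM in ethanol (0.00). Psmc6 had the lowest mean, at 61.2 FPKM in 4-OHT and 74.6 FPKM in ethanol (-0.28). The ATPases are equimolar in the particle, and the highest of their RNA levels was 1.64 times the lowest in 4-OHT and 1.83 times in ethanol.

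The 11 non-ATPase genes of the cap were mixed, with 7 lower, 2 of them at least 20%, 4 higher and a median log2 ratio of -0.15. Among all compared entries, 55.1% were lower, 29.9% at least 20% lower and 44.9% higher. The median over entries with a mean of at least 20 FPKM was -0.14, close to that of the class. Psmd7, the lid partner of the deubiquitinase Psmd14, had the lowest ratio, at 76.5 FPKM in 4-OHT and 106.7 FPKM in ethanol, 1.39-fold lower (-0.47). Psmd14 itself stood at 61.2 FPKM in 4-OHT and 75.6 FPKM in ethanol (-0.30). The lid gene Psmd3 stood at 71.0 FPKM in 4-OHT and 92.2 FPKM in ethanol (-0.37). Other subunit genes of the cap were slightly higher. The lid gene Psmd8 had the highest mean and ratio of the class, at 127.5 FPKM in 4-OHT and 121 FPKM in ethanol (0.08), and the lid gene Psmd6 stood at 59.3 FPKM in 4-OHT and 56.3 FPKM in ethanol (0.07). Psmd2, a docking platform for ubiquitin carriers, stood at 92.6 FPKM in 4-OHT and 87.9 FPKM in ethanol (0.07). Psmd4, a ubiquitin receptor, stood at 75.2 FPKM in 4-OHT and 71.7 FPKM in ethanol (0.07). Psmd11 had the lowest mean, at 38.3 FPKM in 4-OHT and 42.5 FPKM in ethanol (-0.15). The median log2 ratio was -0.18 for the 8 lid genes and -0.15 for the 9 base genes, the ATPases included.

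**Figure D3:**
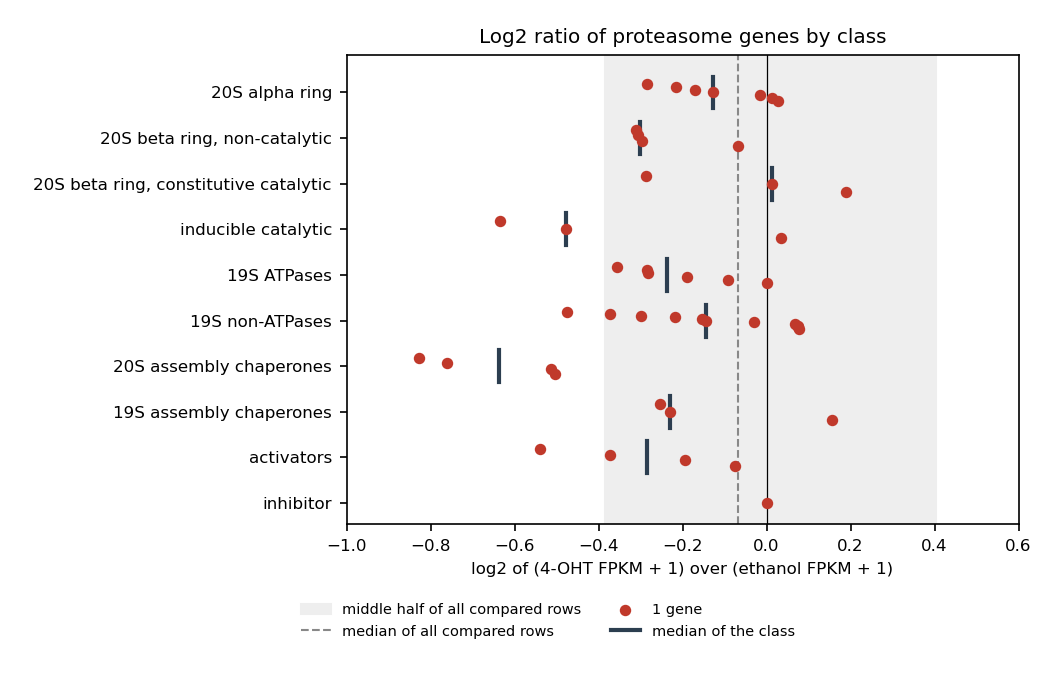
Log2 of (4-OHT FPKM + 1) over (ethanol FPKM + 1) (x axis) of 46 proteasome genes, by class (y axis), 1 point per gene, with the class median as a bar. The grey band runs between the quartiles of all compared entries (-0.39 to 0.40) and the dashed line their median (-0.07). The 4 genes of 20S assembly chaperones all lie left of the band, from -0.83 to -0.50.

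The 20S assembly chaperones had the lowest median of any class. These proteins work as pairs, Psmg1 with Psmg2 and Psmg3 with Psmg4, to build the alpha ring and then leave the finished core. All 4 were at least 20% lower in 4-OHT, with a median log2 ratio of -0.64, and they were 4 of the 6 lowest of the 47 members. Over all compared entries, 29.9% were at least 20% lower. Psmg2 stood at 18.2 FPKM in 4-OHT and 33.01 FPKM in ethanol, 1.78-fold lower (-0.83), and its partner Psmg1 at 20.3 FPKM in 4-OHT and 29.2 FPKM in ethanol, 1.42-fold lower (-0.50). Psmg3 stood at 32.8 FPKM in 4-OHT and 56.2 FPKM in ethanol, 1.69-fold lower (-0.76), and its partner Psmg4 at 33.2 FPKM in 4-OHT and 47.8 FPKM in ethanol, 1.43-fold lower (-0.51). In each pair the 2 partners had closer levels in 4-OHT than in ethanol. The summed level of these 4 genes was 0.0617 of the summed 20S core in 4-OHT and 0.0890 in ethanol. Pomp, the chaperone that helps to join the parts of the core, is outside the name rule and was lower by less, at 174 FPKM in 4-OHT and 205 FPKM in ethanol (-0.23). None of the 3 chaperones of 19S assembly was called. Psmd5 stood at 23.5 FPKM in 4-OHT and 27.7 FPKM in ethanol (-0.23), Psmd9 at 11.5 FPKM in 4-OHT and 13.9 FPKM in ethanol (-0.25), and Psmd10, also known as gankyrin, at 14.8 FPKM in 4-OHT and 13.1 FPKM in ethanol (0.16), the second highest ratio of the members.

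The activators, caps that open the core without ubiquitin, were all lower, 2 of 4 by at least 20%, with a median log2 ratio of -0.28. Among all compared entries, 55.1% were lower and 29.9% at least 20% lower. Of the pair that forms the interferon-inducible ring, Psme1 stood at 147 FPKM in 4-OHT and 168 FPKM in ethanol (-0.19), and Psme2 at 149 FPKM in 4-OHT and 157 FPKM in ethanol (-0.07). Their quotient, Psme1 over Psme2, was 0.988 in 4-OHT and 1.07 in ethanol. Psme3, the nuclear homologue, stood at 59.1 FPKM in 4-OHT and 86.4 FPKM in ethanol, 1.45-fold lower (-0.54), the fourth lowest of the members. Psme4, a single large activator, stood at 28.9 FPKM in 4-OHT and 37.7 FPKM in ethanol, 1.30-fold lower (-0.37). Psme1 and Psme2 together were 5.00 times Psme3 in 4-OHT and 3.76 times in ethanol. Psmf1, a core inhibitor, was level at 5.24 FPKM in 4-OHT and 5.23 FPKM in ethanol (0.00). Psmc3ip, the recombination gene caught by its name, stood at 8.58 FPKM in 4-OHT and 10.2 FPKM in ethanol (-0.23).

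Proteasome partners outside the name rule were also lower, with 10 of 13 lower, 7 of them at least 20%, none 2-fold, and a median log2 ratio of -0.34. The shares over all compared entries were 55.1% lower and 29.9% at least 20% lower. The most abundant were Shfm1, a small lid subunit, at 412 FPKM in 4-OHT and 386 FPKM in ethanol (0.09), Pomp, and Rad23b, a shuttle of ubiquitinated substrates, at 47.4 FPKM in 4-OHT and 71.9 FPKM in ethanol (-0.59). The cap deubiquitinase gene Uchl5 was lower as well, at 33.6 FPKM in 4-OHT and 50.2 FPKM in ethanol (-0.56). The cap ubiquitin receptor gene Adrm1, like Uchl5 chosen after its value was seen, was near level, at 47.0 FPKM in 4-OHT and 44.9 FPKM in ethanol (0.07).

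Regulators of proteasome genes did not follow the subunits. Nfe2l1, the transcription factor that raises subunit genes when the proteasome is impaired, stood at 37.9 FPKM in 4-OHT and 31.8 FPKM in ethanol (0.25). Nfe2l2, its antioxidant relative, stood at 62.5 FPKM in 4-OHT and 43.1 FPKM in ethanol (0.52). Vcp, the segregase gene that releases Nfe2l1 protein from the endoplasmic reticulum, stood at 132 FPKM in 4-OHT and 126 FPKM in ethanol (0.07). Of the 5 listed, 4 were higher, 1 of them at least 25%, and Ngly1, the glycanase gene that acts on Nfe2l1 protein, was lower, at 7.83 FPKM in 4-OHT and 11.3 FPKM in ethanol (-0.48). Over all compared entries, 44.9% were higher and 27.7% at least 25% higher. Of 4 matched genes of ubiquitin supply, 2 were higher and 2 lower: the polyubiquitin gene Ubb stood at 442 FPKM in 4-OHT and 406 FPKM in ethanol (0.12), and the activating enzyme gene Uba1 at 89.1 FPKM in 4-OHT and 95.7 FPKM in ethanol (-0.10).

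The TRiC/CCT chaperonin, another large ring complex of growing cells, was lower by more. Each of its 8 genes was lower, with 6 past the call at 20%, against 55.1% and 29.9% of all compared entries. Their median log2 ratio was -0.42, against -0.15 for the 14 constitutive core genes, none of which was called. Its most abundant genes, Cct5 (176 FPKM in 4-OHT, 249 FPKM in ethanol), Cct2 (189 FPKM in 4-OHT, 248.5 FPKM in ethanol) and Cct3 (142 FPKM in 4-OHT, 193 FPKM in ethanol), had log2 ratios of -0.50, -0.40 and -0.44. The difference between the complexes was not tested, since neither condition has replicates in the table.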

How the data were processed

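The deposited table gives 1 FPKM value per gene for 4-OHT and 1 for ethanol, computed by the authors, with 3 libraries in each condition. The sources used here do not say how libraries were combined or scaled. CASAVA, TopHat2 2.0.9, Cufflinks 2.1.1 and build mm9 are named, per the submitters' processing notes. The deposited log2 ratios of the authors equal log2 of 4-OHT over ethanol within 0.01 in all 15756 entries above 0 in both. No column was left unmatched. Read depth is unknown, so no interval is given, and the planned limma models could not be run.

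Levels were compared as log2 of FPKM with a pseudocount of 1, in entries with a mean of at least 1 FPKM, over all 10856 such entries, and called past 1.25-fold (20% lower or 25% higher) and 2-fold. Members, lists and motifs were chosen with earlier results of these data known. The naming rule took the 6 catalytic genes, all chaperones, activators and the inhibitor, the extremes of each class in ratio and mean, the 5 highest and 5 lowest ratios, and of each other gene list the 3 most abundant genes and any 2-fold different. Markers are given as counts and sums, with some named singly after their values were seen. Some listed genes are counted but not reported singly here. Psme2b, Rps27a, S100a8, S100a9 and Trac had no match by name. Start positions were raised by 1, since 6341 locus lengths equal those of RefSeq genes when counted from 0 and 437 when counted from 1. Promoters were searched over the 250 bases before the start, a window chosen after the data were seen. Where a gene name had several promoter entries, only the entry with the lowest start position was used, on either strand. No member entry merged several names. The entries of Psmd1, Psma4, Psme1 and Psmc3ip share their locus with another gene, and the counting is not stated to use strand. The ratio, counts and scalings were tested on simulated data. Python 3.11.15, numpy 2.4.6, pandas 2.3.3, scipy 1.17.1 and matplotlib 3.10.9 were used.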

Additional observations from a re-analysis of the deposited data

How the results depend on the processing

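No paired analysis was possible because each gene has a single value in each treatment. The replicate block and leaving out single libraries were therefore not run. Pseudocounts of 0.1 and 0.5, the authors' deposited log2 fold changes, median-of-ratios scaling, quantile normalization, no filter, a minimum mean of 5 FPKM and leaving out merged entries moved each of the 47 member ratios and every class median by less than 0.1. The median of all members ran from -0.22 to -0.14, the number of members lower from 31 to 36, and the number at least 20% lower from 8 to 11. The counts over all entries moved too. Median-of-ratios scaling gave 31 and 8 members, with 5428 of 10856 entries lower and 2655 at least 20% lower. Quantile normalization gave 36 and 11 members, with 6277 and 3593 entries. The main setting gave 35 and 11 members, with 5981 and 3242 entries. Leaving out Psmc3ip, an alternative chosen after seeing the data, gave a median of -0.20. Signs changed for Psme2, Psmb4, Psmd13 and Psma1 under median-of-ratios scaling and for Psmb5, Psmf1 and Psma1 under quantile normalization, all within 0.1 of 0. The inducible shares kept their order. Over all entries, those higher numbered 9371 with no filter, against 4875. Among the fewer entries that reach 5 FPKM, 1932 were at least 25% higher and 700 at least 2-fold higher, against 3006 and 1124. Those at least 2-fold lower were 457 at a pseudocount of 0.1 and 482 by the authors' fold changes, against 280; low genes change most there by construction.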

Other observations

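Psmb5, the constitutive catalytic gene, lies 96.6 kb from Prmt5 on chromosome 14 in the mm9 loci of the table. Prmt5 was 6.35-fold lower in 4-OHT, and Psmb5 was level (log2 ratio 0.01). Of the entries between them, 2 were compared: Haus4, a gene of a mitotic spindle complex, stood at 18.04 FPKM in 4-OHT and 26.5 FPKM in ethanol (-0.53), and 4931414P19Rik at 2.08 FPKM in 4-OHT and 2.56 FPKM in ethanol (-0.21).

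AI314180, a listed proteasome partner gene, stood at 31.5 FPKM in 4-OHT and 54.7 FPKM in ethanol, 1.71-fold lower (log2 ratio -0.78), below 46 of the 47 members; it was picked out after its value was seen.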
